A study of Mus musculus with 8 samples.

Results

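Of 27012 autosomal ATAC-seq peaks called in tumour regulatory T cells (Treg), 3299 (12.2%) were tumour-only peaks at a gene end. They were chosen by their own readout: a peak had to touch no peak of the spleen Treg list, not even by 1 bp, and to lie within 1 kb of either end of a protein-coding gene in the mm10 RefSeq annotation. ATAC-seq marks open chromatin by letting a transposase cut and tag accessible DNA. Tumour Treg and spleen Treg came from C57BL/6 mice of genotype JMJD1CWT aged 8 to 12 weeks, with 1 ATAC library from each tissue, so the choice of peaks has no replicate check and no test compares the tissues. Dimethylation of lysine 9 of histone H3 (H3K9me2), a mark of repressed chromatin, was mapped by CUT&RUN, where an antibody-guided nuclease cuts out marked DNA, in tumour Treg of JMJD1CTregcKO mice (cKO, 3 libraries) and of JMJD1CWT mice (WT, 3 libraries) of the same strain and age. The cKO is a Treg-restricted deletion of Jmjd1c, a gene of the KDM3 family of H3K9 demethylases; the driver of the deletion is not named in the labels, and peak lists do not show whether the gene was deleted. Treg were purified with magnetic beads before the fluorescence sort.

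Treg are CD4 T cells that hold immune responses in check. Those in tumours are known for an activated, effector state with high levels of receptors such as CCR8 and of suppressive molecules, while many spleen Treg are closer to a resting state. Most open chromatin at gene starts is shared between cell types, because CpG-rich promoters of widely used genes stay open in nearly every cell. Promoters of lineage genes are often poor in CpG and open with the state of the cell.

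The ATAC libraries were of like depth, with 11293674 tags in tumour and 11068821 in spleen, but not of like quality. The share of tags in peaks was 11.03% in tumour and 4.77% in spleen, the width that the caller gave every peak was 322 bp in tumour and 869 bp in spleen, and the lowest number of tags for a peak was 10 in tumour and 15 in spleen. A tumour-only peak therefore means that no peak was called there in spleen, and it does not show closed chromatin. In bulk libraries a peak from some of the cells and a weaker peak in all of them cannot be told apart. As for the labelled cell type, Cd3d, Cd3e, Cd3g and Il2ra had a peak within 1 kb of an end in both lists. Lck, a kinase of T cell receptor signalling, had an end peak in tumour (tag signal 11.5) and none in spleen, where peaks stood in the gene or within 5 kb. Cd4, Ikzf2, Tnfrsf18 and Foxp3 had peaks in both lists inside the gene or within 5 kb of it but not at an end, and Ctla4 had none in either. H3K9me2 libraries held 24774509 to 30313851 tags. The labels do not say whether replicates were separate animals, so spread between them may be technical. In the headers, the names of cKO replicates 1 and 3 carry 1 common knockout number. No opening part occurs in both genotypes, though the letter L stands in the names of cKO replicate 1 and of every WT library. What these parts stand for is not stated, so a batch and the genotype cannot be told apart from them.

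Tumour-only peaks lay at promoters of both kinds, and 6 promoters show the range. They were taken from the strongest peaks and from the gene lists described further on, and each runs from 250 bases before to 50 after a RefSeq start (GRCm38.p6, the mm10 assembly), printed 5′ to 3′ on the strand of the gene. Capitals mark matches, on either strand, to the letters GGGCGG (SP/KLF), CCAAT (NF-Y), TGANTCA (AP-1), CACGTG (E-box), TGTGGTT (RUNX) and TTCNNNGAA (STAT), and to the NF-kB consensus. Insig1 (chr5:28071162-28071461, plus strand) encodes an endoplasmic reticulum protein that restrains sterol synthesis, and its promoter holds 38 CpG, with 3 SP/KLF matches, 1 NF-Y match and 1 E-box. Srxn1 (chr2:152105274-152105573, plus strand) encodes sulfiredoxin, an enzyme that repairs oxidised peroxiredoxins, and its promoter holds 26 CpG, 2 SP/KLF matches and 2 AP-1 matches. Tnfrsf8 (chr4:145315115-145315414, minus strand) encodes CD30, a TNF receptor family member of activated lymphocytes, and its promoter holds 15 CpG, with 1 match each to SP/KLF, AP-1 and the E-box and 2 overlapping NF-kB matches.
Insig1 promoter: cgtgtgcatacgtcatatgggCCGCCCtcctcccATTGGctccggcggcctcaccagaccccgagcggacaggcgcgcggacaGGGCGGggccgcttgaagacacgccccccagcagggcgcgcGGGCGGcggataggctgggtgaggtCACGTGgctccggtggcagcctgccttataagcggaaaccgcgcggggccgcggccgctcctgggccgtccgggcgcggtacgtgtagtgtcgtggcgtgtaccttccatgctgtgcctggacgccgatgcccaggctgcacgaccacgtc
Srxn1 promoter: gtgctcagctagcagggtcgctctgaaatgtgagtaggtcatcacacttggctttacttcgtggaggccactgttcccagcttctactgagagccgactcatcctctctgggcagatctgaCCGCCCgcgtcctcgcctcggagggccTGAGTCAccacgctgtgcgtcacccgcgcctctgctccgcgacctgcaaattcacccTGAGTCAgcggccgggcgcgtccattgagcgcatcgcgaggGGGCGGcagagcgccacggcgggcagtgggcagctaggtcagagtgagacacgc
Tnfrsf8 promoter: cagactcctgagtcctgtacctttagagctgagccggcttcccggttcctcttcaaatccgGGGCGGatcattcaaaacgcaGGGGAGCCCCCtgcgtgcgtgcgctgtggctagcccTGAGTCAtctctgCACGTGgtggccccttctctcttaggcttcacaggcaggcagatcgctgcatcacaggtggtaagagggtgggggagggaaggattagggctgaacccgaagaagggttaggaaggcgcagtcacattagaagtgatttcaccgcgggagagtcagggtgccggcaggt

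The other promoters shown belong to lineage or effector genes and are poor in CpG. Ccr8 (chr9:120091883-120092182, plus strand), a chemokine receptor known to mark tumour Treg, has 2 CpG and 1 NF-Y match. Havcr2 (chr11:46454681-46454980, plus strand), which encodes the inhibitory receptor TIM-3, has 3 CpG with 1 AP-1 and 1 RUNX match. Gzmb (chr14:56262285-56262584, minus strand), which encodes the cytotoxic protease granzyme B, has 2 CpG with 1 match each to AP-1, RUNX and STAT.
Ccr8 promoter: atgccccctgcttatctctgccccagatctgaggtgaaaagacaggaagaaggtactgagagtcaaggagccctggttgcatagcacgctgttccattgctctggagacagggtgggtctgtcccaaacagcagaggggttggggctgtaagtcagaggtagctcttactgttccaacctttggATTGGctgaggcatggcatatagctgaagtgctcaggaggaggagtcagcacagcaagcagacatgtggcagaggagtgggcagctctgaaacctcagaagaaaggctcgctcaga
Havcr2 promoter: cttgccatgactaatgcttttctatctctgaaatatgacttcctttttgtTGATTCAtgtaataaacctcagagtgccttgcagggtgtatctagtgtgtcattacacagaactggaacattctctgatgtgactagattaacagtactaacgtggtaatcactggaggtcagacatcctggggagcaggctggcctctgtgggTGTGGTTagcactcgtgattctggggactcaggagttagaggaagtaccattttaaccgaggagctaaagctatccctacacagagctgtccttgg
Gzmb promoter: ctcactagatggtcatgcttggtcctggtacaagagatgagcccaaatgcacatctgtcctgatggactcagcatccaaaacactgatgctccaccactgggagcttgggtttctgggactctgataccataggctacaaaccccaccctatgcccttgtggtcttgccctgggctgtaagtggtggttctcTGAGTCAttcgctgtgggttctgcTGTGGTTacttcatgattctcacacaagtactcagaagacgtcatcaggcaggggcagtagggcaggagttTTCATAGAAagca

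Over the whole set, CpG-rich promoters were in the majority. The RefSeq promoter table held 20085 promoters of 16457 autosomal coding genes, and 1846 of them (1698 genes) overlapped a tumour-only gene-end peak and no shared peak. Their median GC content was 63.3%, against 62.0% in 5246 promoters with a shared peak (one that touches a spleen peak). It was 51.3% in 11294 promoters with neither a tumour nor a spleen peak, named below as without a peak, and 57.0% in all. A ratio of observed to expected CpG of 0.6 or more was found in 76.7% of promoters with a tumour-only peak (95% Wilson interval 74.7 to 78.5), against 86.4% of promoters with a shared peak (85.4 to 87.3), 24.0% of promoters without a peak and 48.9% of all. Among peaks with a tag signal of 60 or more the shares were 77.0% for tumour-only and 89.7% for shared peaks. At a tag signal of 15 to 30 they were 77.4% and 75.3%, in the other order. The tag signal is the deposited number of tags in a peak scaled to a library of 10000000 tags. Intervals here cover counting error over promoters of 1 library only.

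Motif letters were counted as a description of sequence, on both strands. GGGCGG occurred in 70.6% of promoters with a tumour-only peak, against 71.6% with a shared peak, 29.8% without a peak and 47.0% of all promoters. CCAAT, the NF-Y box, stood in 30.9% of promoters with a tumour-only peak, against 46.0% with a shared peak and 38.1% of all. CCGGAAG, read by ETS factors, stood in 19.7% of them, against 25.8% with a shared peak and 11.9% of all. TGANTCA, read by AP-1, was found in 5.09% of promoters with a tumour-only peak (interval 4.18 to 6.19), against 3.87% with a shared peak (3.38 to 4.43) and 7.06% of all. The NF-kB consensus stood in 12.1%, against 10.1% with a shared peak and 9.42% of all. TTCNNNGAA, read by STAT factors, stood in 6.61%, against 6.60% with a shared peak and 7.78% of all. TGTGGTT, read by RUNX factors, stood in 3.68%, against 3.32% with a shared peak and 4.77% of all. TATAAA was in 6.23%, against 5.39% with a shared peak and 18.1% of promoters with no peak.

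The tag signal of the tumour-only gene-end peaks had a median of 20.8, with quartiles at 13.7 and 31.9 and a range of 7.08 to 194.4. Shared gene-end peaks had a median of 61.1, tumour-only peaks inside genes 16.4 and tumour-only intergenic peaks 15.1. The selection bears on these values, which are given as a description with no test. A tag signal of 50 or more was reached by 304 of the 3299 peaks (9.21%). The score, in tags of the library itself, was under the spleen threshold of 15 for 801 of them (24.3%), and a spleen peak of that score could not have been called.

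**Figure D1:**
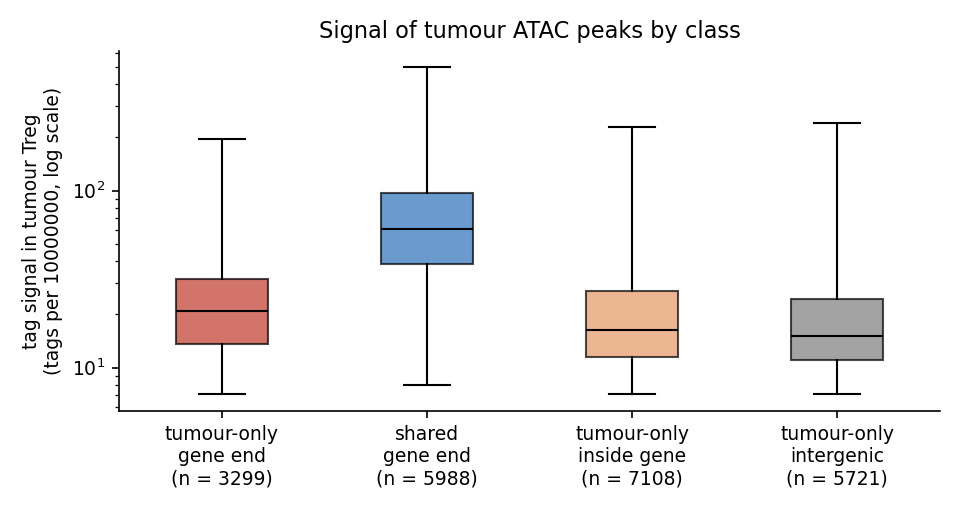
Deposited tag signal (scaled tags, log axis) of tumour Treg ATAC peaks in each of 4 classes; boxes span the quartiles, lines mark medians and whiskers reach the lowest and highest peak. Tumour-only gene-end peaks have a median of 20.8, below the 61.1 of shared gene-end peaks and above the 16.4 and 15.1 of the other tumour-only classes.

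A gene-end peak of tumour Treg was tumour-only less often than other peaks. The share was 35.5% of 9287 gene-end peaks (Wilson interval 34.6 to 36.5), against 71.6% of peaks inside genes, 73.3% of intergenic peaks and 59.7% of all. Among tumour-only peaks, 20.5% lay at a gene end, against 55.0% of shared peaks. The converse class was small: 279 of 6405 spleen gene-end peaks (4.36%) touched no tumour peak. Across chromosomes the tumour-only share of gene-end peaks ran between 28.3% on chromosome 18 and 41.3% on chromosome 11.

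Some of these peaks had a spleen peak next door. The nearest spleen peak was a median of 19288 bp away, and for 2150 peaks (65.2%) it was over 10 kb away. For 323 peaks (9.79%) it was within 500 bp. The headers set the minimum distance between peaks at 644 bp for the tumour list and 1738 bp for the spleen list. The centres of 472 tumour-only gene-end peaks (14.3%) fell closer than 1738 bp to the centre of a spleen peak, where a second spleen peak could not be called. For tumour-only peaks inside genes the share was 5.95% and for intergenic ones 4.86%. In 319 of the 472 cases (67.6%) another tumour peak touched that same spleen peak. This neighbourhood was commoner among strong peaks, with 5.33% of peaks under a tag signal of 15, 35.4% of those between 50 and 100, and 60.6% of 33 peaks at 100 or more. Beyond that distance lay 2827 peaks, of which 188 had a tag signal of 50 or more.

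The limit of 1 kb was met by Rtn4rl1, Adprh and Map2k3 at 1000, 999 and 998 bp, with tag signals of 22.1, 9.74 and 10.2. Just outside were the peaks nearest Smap2, Gm30679 and Lmnb1, at 1002, 1002 and 1003 bp, with tag signals of 39.4, 12.4 and 70.4. At the other limit, the peaks of Kctd18, Cep83 and Nectin2 escaped a spleen peak by 2, 2 and 4 bp, with tag signals of 53.6, 41.2 and 35.4.

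Most of the peaks stood at gene starts, and the centre of the peak was spread further into the gene than at shared peaks. Strand could be taken from the promoter table for every gene end in reach of 2533 of the 3299 peaks. Of these, 2084 (82.3%, Wilson interval 80.7 to 83.7) reached only starts, 315 (12.4%) only 3′ ends and 134 both. Among 4846 shared peaks with known strand, 92.8% reached only starts and 2.41% only 3′ ends. From the nearest start, centres lay at a median of +24 bp (quartiles -69 and 245.5, 2270 peaks), against -14 bp for shared peaks (quartiles -78 and 72, 4885 peaks). An end itself was covered by 1680 of the peaks (50.9%). A peak within 1 kb of 2 or more genes was seen in 12.0% of cases, against 19.4% at shared gene-end peaks.

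**Figure D2:**
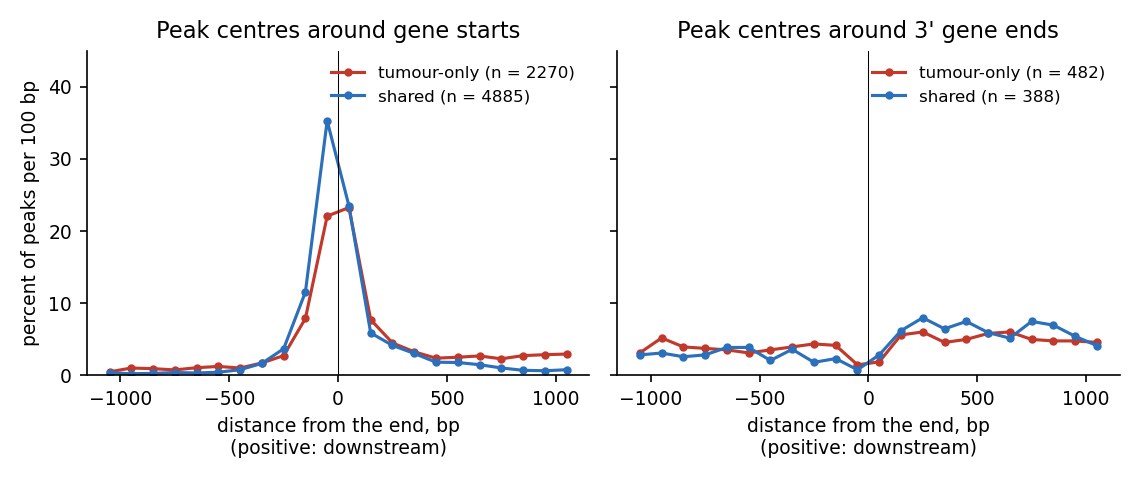
Percent of peaks per 100 bp (vertical axis) by the distance of the peak centre from a gene start (left) or a 3′ end (right), for tumour-only (red) and shared (blue) peaks of tumour Treg. Around starts both curves top out near 0, with the median at +24 bp for tumour-only and -14 bp for shared peaks, and the tumour-only curve stays higher beyond about 500 bp downstream; around 3′ ends neither has a central summit.

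A tumour-only peak stood at an end of 3416 of 20665 autosomal coding genes (16.5%). For some of these genes the peak was not the sole sign of open chromatin. A spleen peak at an end was also present for 791 (23.2%), below the 36.2% of all genes, and the choice of peaks bears on this share. In the gene or within 5 kb, 1601 (46.9%) had a spleen peak, close to the 48.6% of all genes. Different peaks marked both ends of 151 genes, and 14 genes had 3 or more of the peaks, among them S100a4, a calcium-binding protein of effector T cells.

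Most of the strongest tumour-only gene-end peaks had a spleen peak nearby. Sap130, a subunit of the SIN3 corepressor complex, had the highest tag signal, 194.4, with a spleen peak 61 bp away. Mthfd1l, a mitochondrial enzyme of folate metabolism, had 180.2 at 153 bp from a spleen peak. Rras, a small GTPase of integrin signalling, had 175.3 (chr7:45017669-45017991) at 956 bp. Skil, which encodes the SMAD repressor SnoN, had 173.5 at 1121 bp, and Adssl1, an enzyme of AMP synthesis, had 155 at 1128 bp. Appl1, an endosomal adaptor, and Insig1 had 146.5 and 144.3 at 59 and 95 bp. Of the 10 strongest peaks, 8 lay inside the spleen caller's minimum distance.

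Outside that distance were Srxn1 and Spef1l. Srxn1 had a tag signal of 137.2 (chr2:152105292-152105614), and the nearest spleen peak was 120653 bp away. Spef1l had 135.9, with the nearest spleen peak at 2363 bp. The ninth peak, with 136.8, lay just inside the start of Hnrnpul1, an RNA-binding protein, and 235 bp from the 3′ end of Axl, a receptor tyrosine kinase. By the rule it belongs to both, and a spleen peak stood 432 bp away. Srxn1 had a second, weak peak at its 3′ end with 10.6. Tnfrsf8 was also marked at both ends, with 102.3 at its start and 16.8 at its 3′ end. Further genes marked at both ends were Bhlhe40, a transcription factor of activated T cells, with 102.3 and 78.4, Acap1 with 91.2 and 22.1, and Ccdc97 with 79.7 at either end.

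Gene lists were read against the 16.5% of all autosomal coding genes. The 440 autosomal genes of all lists together had a tumour-only peak at 132 (30%). No tumour peak of any kind stood at an end of 33.0% of them, against 52.4% of all genes. A list can therefore stand above 16.5% without differing from listed genes at large, and no list was tested. Of 44 genes of receptors and effector molecules known from tumour Treg, 13 (29.5%) had a spleen peak at an end, against 36.2% of all genes. A tumour-only peak stood at an end of 18 of the 44 (40.9%). The strongest were Tnfrsf8 and Ccr8, whose peak had a tag signal of 97.4 and a spleen peak 253 bp away. Havcr2 followed with 70 and a spleen peak 17252 bp away, and Gzmb with 69.5 at 33969 bp. Il10, which encodes a suppressive cytokine, had 59.8 at a peak 839 bp outside the gene, at an end of unknown strand. Tnfrsf25, a TNF receptor family member that expands Treg, also had 59.8, at 440 bp from its 3′ end. With the peaks inside the spleen caller's minimum distance left out, 17 of the 44 genes kept such a peak, against 14.1% of all genes. With the tumour list cut to the length of the spleen list, strongest peaks first, 9 of the 44 had one, against 1313 of all 20665 genes.

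The general Treg identity list had 8 of 30 genes (26.7%) and 4 of 30 (13.3%) under that restriction. Its members included Socs1, a brake on cytokine signalling, with 77, Tgfbr2, a receptor of TGF-beta, with 63.3, Foxo3 with 61.5, all 3 with a spleen peak within 1 kb, Nrp1, a co-receptor found on thymus-derived Treg, with 45.2 at its 3′ end, and Nt5e, which encodes the adenosine-producing enzyme CD73, with 44.3. Inhibitory receptors had 5 of 16 (31.3%), led by Cd5, a damper of T cell receptor signals, with 108 and a spleen peak 1051 bp away. Under the same restriction 3 of the 16 (18.8%) remained, against the 14.1% of all genes. Genes of naive and lymphoid-homing cells had 5 of 17 (29.4%), among them Cd27 with 57.1 at its 3′ end and S1pr1, the receptor for exit from lymph nodes, with 24.3.

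Signalling and transcription factors came next. Of 30 genes of T cell receptor signalling, 12 (40%) had such a peak, led by Nr4a3, an immediate-early nuclear receptor, with 98.3 (1051 bp from a spleen peak) and the adaptor Lat with 78.4 (7758 bp). With the peaks inside the spleen caller's minimum distance left out, 10 of 30 (33.3%) had such a peak, against 14.1% of all genes. With peaks that score under the spleen threshold left out, it was 8 of 30 (26.7%), against 13.0%. The count was 4 of 30 with the cut tumour list, 5 for the stronger 50% of each list and 19 within 2 kb of an end. The count over all coding genes changes with these settings too, for the cut list to the number given above. A shift alone therefore says nothing about a list. AP-1 and ATF factors had 9 of 19 (47.4%), led by Junb with 130.2 (5798 bp from a spleen peak), Jun with 79.7 (543 bp) and Bach1, a repressor of oxidative stress genes, with 69.1 (13844 bp). The Junb and Jun peaks lay 957 and 976 bp from the gene start. Without peaks inside the spleen caller's minimum distance, the AP-1 list kept 6 of 19 (31.6%), against 14.1% of all genes. Within 500 bp of an end, a narrower reach for every gene, it had 4. STAT and cytokine signalling had 11 of 25 (44.0%), with the feedback inhibitors Socs3 at 84.6, Socs1 at 77 and Cish at 62.4, and the receptors Il21r at 66.4 and Il4ra at 58. Stat6, which acts downstream of the IL-4 receptor, had 62. The nearest spleen peak lay 4824 bp from the Socs3 peak, 649 bp from that of Socs1, 138 bp from that of Cish and 360 bp from that of Stat6. The NF-kB pathway had 7 of 24 (29.2%), led by the inhibitor Nfkbie with 58, and PI3K-AKT-mTOR had 4 of 24 (16.7%).

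Th1 and interferon genes had 13 of 23 (56.5%), the highest share of the 19 lists under the rule as used. They did not lead under some other settings. At tag signals of 50 or more they had 0 of 23, against 6 of 25 (24%) for STAT and cytokine signalling and 1.64% of all genes. With the cut tumour list they had 8 of 23, against 11 of 25 for STAT and cytokine signalling and 7 of 19 for AP-1 and ATF factors. For the stronger 50% of each list they had 12 of 23, against 16 of 25 and 12 of 19, and within 2 kb of an end 14 of 23, against 19 of 30 for T cell receptor signalling. The tag signals of the Th1 and interferon genes ran from 9.30 to 42.5. Their median was 24.8, against 20.8 for all tumour-only gene-end peaks. Among them were Irf7, an interferon-induced transcription factor, at 42.5 (266 bp from a spleen peak), Irf1 at 37.6 (412 bp), Ifit1 at 32.3, Il12rb2 at 26.6 and Ifng, which encodes interferon-gamma, at 24.8. None of the 13 genes had a tag signal of 50 or more, a level reached by 304 of the 3299 peaks (9.21%). The H3K9 methylation machinery, the enzymes that write and erase the mark and their partners, had 8 of 19 (42.1%). Its 8 peaks had a median tag signal of 17.25. These were Kdm1a with 39.8, Trim28 with 30.5, Prdm2 with 19, Setdb1 with 18.6, Wiz with 15.9, Ehmt1 and Kdm3b with 15.5 each, and Ehmt2 with 14.6. Outside the spleen caller's minimum distance 7 of 19 (36.8%) remained, against 14.1% of all genes. The count was 5 of 19 within 500 bp of an end, 4 for the stronger 50% of each list and 2 with the cut tumour list. As above, the count over all coding genes changes with each of these settings, so these shifts are no result about the list. Ubiquitous genes had 7 of 26 (26.9%), and 3 of 26 outside the spleen caller's minimum distance. There were 9 of 42 (21.4%) among cell cycle genes and 10 of 32 (31.3%) among genes of glycolysis and lipid metabolism, led by Sqle, an enzyme of cholesterol synthesis, with 107.6. Shared peaks stood at 30 of 42 cell cycle genes (71.4%) and 18 of 26 ubiquitous genes (69.2%), against 33.9% of all genes.

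**Figure D3:**
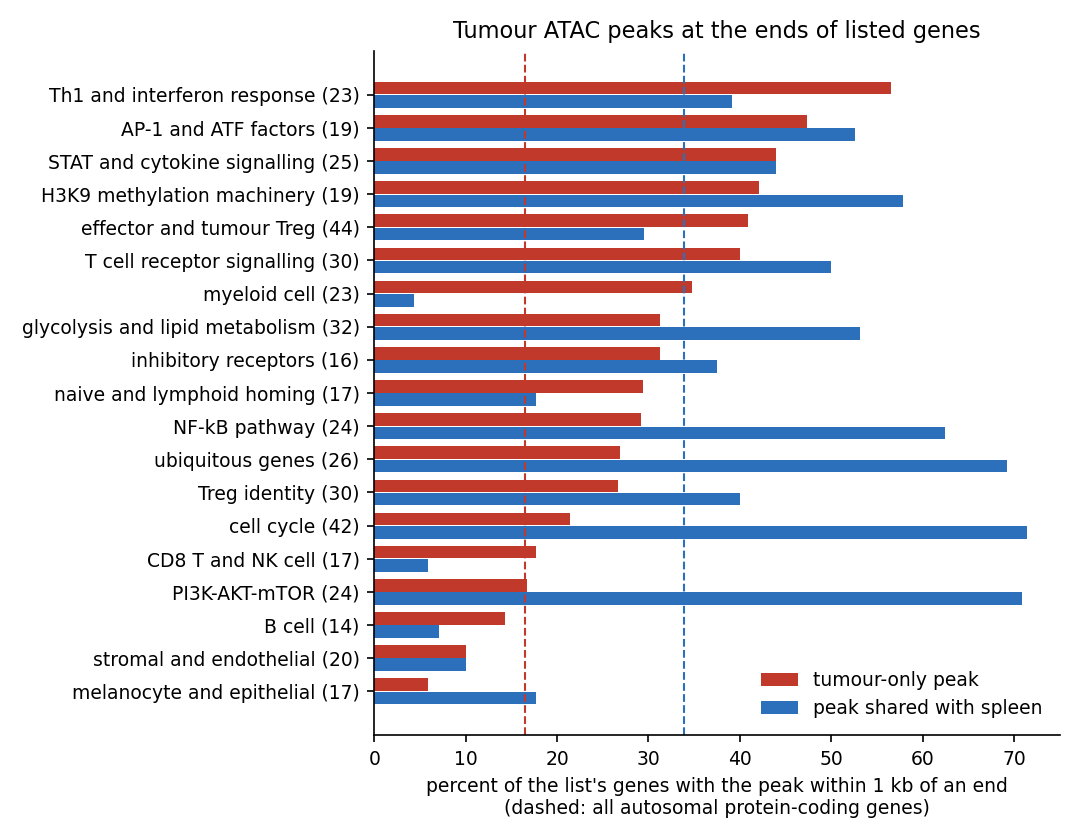
Percent of the genes of each list (horizontal axis; list size in brackets) with a tumour-only peak (red) or a peak shared with spleen (blue) within 1 kb of an end; dashed lines give the 16.5% and 33.9% of all autosomal coding genes. Th1 and interferon genes have 56.5% with a tumour-only peak, and myeloid genes have 34.8% with a tumour-only and 4.35% with a shared peak.

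Markers of other cell types were also looked for at the tumour-only peaks. Of 23 myeloid genes, 1 had a spleen peak at an end, against 36.2% of all genes. A tumour-only peak stood at an end of 8 of the 23 (34.8%). Among them were Spi1, with the highest tag signal of 44.3, Cd68 with 38.1, Cebpb with 23.0, Cd14 with 15.9, Itgax with 12.4, Flt3 with 9.3 and Fcer1g with the lowest, 8.41. Without peaks that score under the spleen threshold, 5 of the 23 remained, against 13.0% of all genes. With the cut tumour list 2 of the 23 had such a peak, as for the stronger 50% of each list, settings that change the count over all genes too. A tag signal of 50 was reached by 0 of them, against 1.64% of all genes. Genes of CD8 T and NK cells had 3 of 17 (17.6%), B cell genes 2 of 14 (14.3%), stromal and endothelial genes 2 of 20 (10%) and melanocyte and epithelial genes 1 of 17 (5.88%), which was Mlana with 16.4. The part of other cells in the tumour-only peaks was not tested.

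H3K9me2 was then compared at the same peaks, a measure that the choice of peaks did not use. It was taken as the percent of the 10 kb around each peak centre covered by the deposited H3K9me2 peaks. The mean over the 3299 tumour-only gene-end peaks was 3.54, 4.56 and 3.31% in cKO replicates 1 to 3, against 1.46, 3.09 and 2.25% in WT replicates 1 to 3. The cKO libraries were all above the WT libraries, with averages of 3.80 ± 0.666% in cKO and 2.27 ± 0.812% in WT (SD, n = 3 each) and a difference of 1.54 percentage points. With the H3K9me2 lists cut to equal length, strongest peaks first, the difference was 0.352, and with the stronger 50% of each list 0.271. The same held for all 27012 tumour peaks, at 4.38 ± 0.632% in cKO and 2.77 ± 0.804% in WT, a difference of 1.61. Over the autosomes as a whole, the H3K9me2 peaks covered 4.49 ± 0.848% in cKO and 3.73 ± 0.351% in WT. Divided by that coverage, the tumour-only gene-end windows held 0.864 ± 0.184 of it in cKO and 0.606 ± 0.198 in WT, and the libraries of the 2 genotypes then overlapped. WT replicate 1 was the lowest library at these peaks, and without it the difference was 1.14.

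Over these 10 kb windows, tumour-only gene-end peaks had less H3K9me2 than the other classes in either genotype. In 6 of 6 libraries their covered percent was below that of shared gene-end peaks, with differences of -0.593 to -0.0480 points. Against tumour-only peaks inside genes the differences were -0.478 to -0.0420 points, and against tumour-only intergenic peaks -1.79 to -1.05 points, also below 0 in 6 of 6 libraries. The share of peaks touching an H3K9me2 peak was 5.13 ± 1.30% in cKO and 4.44 ± 1.96% in WT, within the spread between libraries. At shared gene-end peaks it was 7.79 ± 1.31% in cKO and 6.92 ± 1.83% in WT, and the tumour-only gene-end peaks were lower in 6 of 6 libraries. H3K9me2 touched 747 of the 3299 peaks (22.6%) in at least 1 library, against 34.8% of all tumour peaks. It touched 0 in all 6 libraries, against 0.0185% of all tumour peaks, so the 0 is no result about these peaks.

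**Figure D4:**
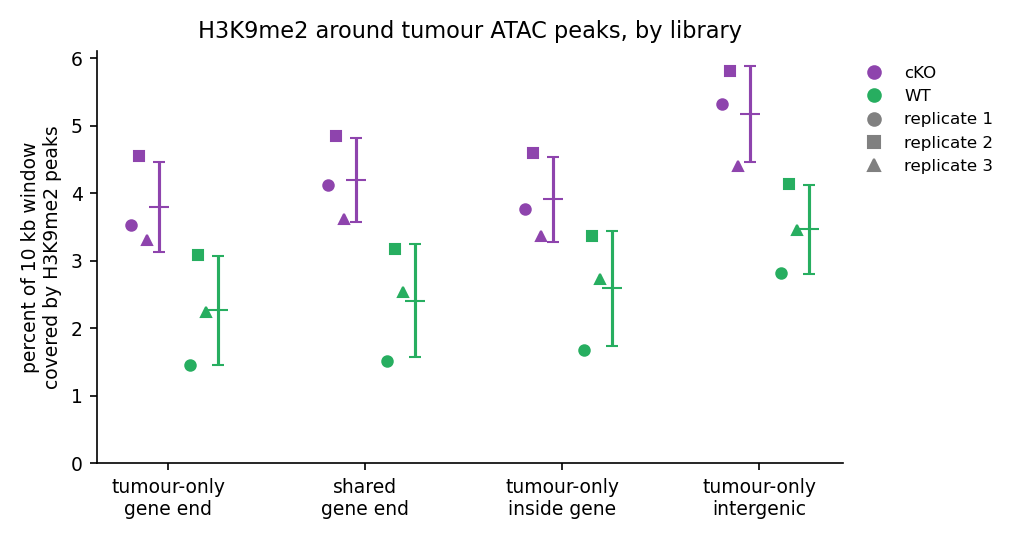
Mean percent of the 10 kb around tumour ATAC peaks covered by H3K9me2 peaks in each cKO (purple) and WT (green) library, for 4 classes of peaks; symbols are replicates, and the bars beside them give mean and SD (n = 3). At tumour-only gene-end peaks the cKO libraries lie between 3.31 and 4.56% and the WT libraries between 1.46 and 3.09%.

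Coverage was also followed with distance from the peaks. Within 1 kb centred on tumour-only gene-end peaks the covered percent was 3.31 ± 0.835 in cKO and 2.59 ± 1.15 in WT. At 2 to 5 kb away it was 4.13 ± 0.690 in cKO and 2.37 ± 0.711 in WT, and at 20 to 25 kb away 4.30 ± 0.720 in cKO and 2.86 ± 0.676 in WT. The central value was below that at 20 to 25 kb in 5 of 6 libraries, WT replicate 2 being the exception. Shared gene-end peaks had central values above those at 20 to 25 kb in 6 of 6 libraries, with averages of 4.85 ± 0.784 in cKO and 4.21 ± 1.28 in WT, against 4.26 ± 0.678 in cKO and 2.23 ± 0.768 in WT at 2 to 5 kb. In that flank the order of the classes was not that of the 10 kb windows. In WT the tumour-only gene-end peaks, with 2.37, stood above shared gene-end peaks, and in cKO, with 4.13, above tumour-only peaks inside genes, which had 3.98. The cKO and WT libraries overlapped in the central 1 kb of the tumour-only gene-end peaks and were apart at 2 to 5 kb.

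**Figure D5:**
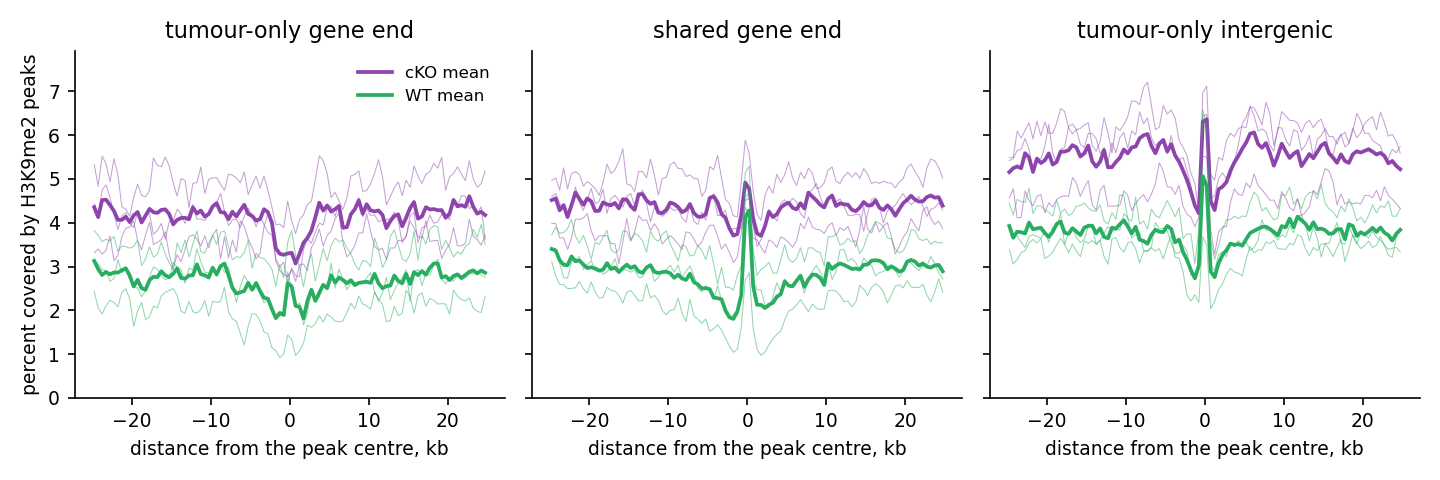
Percent covered by H3K9me2 peaks (vertical axis) in 500 bp bins by distance from the centre of tumour ATAC peaks, for 3 classes; thick lines are the means of cKO (purple) and WT (green), thin lines single libraries. At tumour-only gene-end peaks mean coverage in the central 1 kb is 3.31% in cKO, below the 4.13% at 2 to 5 kb, and 2.59% in WT, a small rise within a dip and above the 2.37% at 2 to 5 kb; the other 2 classes show a taller central spike in both genotypes.

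At single peaks no difference between the genotypes passed the test run across all tumour peaks. With limma, 22628 windows that had mean coverage of at least 1% were tested, 2588 of them at tumour-only gene-end peaks. An adjusted p under 0.05 was reached by 0 of the 2588, against a background of 0% of all windows, with 0.612 as the lowest value. The power of the test in these data was not established. At an unadjusted limma p under 0.05, 125 of the 2588 (4.83%) were higher in cKO, against a background of 5.43%, and 11 (0.425%) were lower, against 0.508%. Groups did not overlap, with cKO higher, at 172 (6.65%), against 7.04% of all windows, and with cKO lower at 23 (0.889%), against 0.928%. A difference above 0 was seen at 1834 (70.9%), against 70.2%. The median difference was 1.89 percentage points, against 1.75 in all windows. All of these shares lie near their backgrounds and are no result about these peaks.

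Among peaks whose genotypes did not overlap, the 5 with the smallest limma p in each direction were named, and each had an adjusted p of 0.612. At Gpatch4 the 10 kb window was covered over 17.9, 19 and 14.6% in cKO and 0% in each WT library. At Tal1, a transcription factor of blood progenitors, it was covered over 9.11, 16.1 and 15.3% in cKO and 0% in each WT library. Cdc27, a subunit of the anaphase-promoting complex, averaged 12.5 ± 2.69% in cKO and 0% in WT. Gpatch1 averaged 12.1 ± 2.08% in cKO and 0% in WT. Spi1, the myeloid transcription factor PU.1 also named above, averaged 9.54 ± 1.92% in cKO and 0% in WT (SD, n = 3 each). With H3K9me2 lists of equal length the difference was 9.55 points at Gpatch4, 5.11 at Tal1, 6.79 at Cdc27, 2.38 at Gpatch1 and 3.73 at Spi1, against 17.2, 13.5, 12.5, 12.1 and 9.54 with the lists as deposited. A value of 0% means that no H3K9me2 peak of the deposited list fell in the window, not that the mark was absent.

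In the other direction, Dmrta1, a gene of the DMRT family, had 0% in each cKO library and 15, 22.4 and 15.8% in WT. Sdr42e1, a short-chain dehydrogenase, averaged 0% in cKO and 14.7 ± 5.94% in WT. Gemin2, a protein of spliceosome assembly, averaged 1.67 ± 2.89% in cKO and 12.4 ± 2.98% in WT. The odorant receptor Olfr530 averaged 0% in cKO and 7.05 ± 2.20% in WT, and the organic anion transporter Slc22a8 0% in cKO and 7.16 ± 2.57% in WT. With windows of 25 kb on each side the sign at Slc22a8 turned round, to a difference of 0.907 points.

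By list, the peaks of tumour and effector Treg genes had 21 tested windows, 17 of them with a difference above 0 and 2 below, and a median difference of 3.33 points. Windows of the same gene can overlap, as for the 3 peaks of S100a4, so such counts can hold the same H3K9me2 peaks more than 1 time. The peak size in the H3K9me2 headers, 500 bp, is 5% of a 10 kb window, so a value of 5% can rest on 1 called peak. Havcr2 was covered over 5, 5 and 13.6% in cKO and 0% in each WT library, and Gzmb over 6.96, 8.34 and 5% in cKO and 0, 5 and 0% in WT. Both had an adjusted limma p of 0.612. Il10 had 0, 9.17 and 5% in cKO and 0% in each WT library, and the genotypes overlapped. Ccr8 had 0, 4.60 and 0% in cKO and 0, 7.98 and 0% in WT, with the genotypes overlapping. Among AP-1 and ATF factors, 6 of 7 tested windows had a difference above 0, with a median of 3.90, and Junb was covered over 10, 6.36 and 5% in cKO and 0% in each WT library. Its adjusted limma p was 0.612 as well. Th1 and interferon genes had 9 of 14 above 0 and a median of 3.47, and Ifng had 0, 6.92 and 0% in cKO and 6.93, 0 and 0% in WT. The Treg identity list had 2 of 6 above 0 and a median of -0.265, STAT and cytokine signalling 4 of 10 and -0.613, and myeloid genes 4 of 8 and -0.07. Ubiquitous genes had 4 of 4 above 0 and a median of 4.075. Inhibitory receptors also had 4 of 4, and genes of CD8 T and NK cells 3 of 4 and 5.29. Cell cycle genes had 2 of 7 above 0 and genes of glycolysis and lipid metabolism 3 of 7, each with a median of 0. A high median was therefore not particular to effector Treg, AP-1 or Th1 genes. Against the 70.2% of all windows above 0 these are counts of few windows with no test of any list.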

How the data were processed

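The deposited files are peak lists on mm10, which the authors called with HOMER findPeaks in each library alone and without a control library, per the file headers. ATAC peaks were called in factor style (false discovery rate 0.001, at least 4-fold over the surrounding 10 kb), H3K9me2 in histone style. The submitters' processing notes name HOMER, deepTools, Picard, SAMtools 1.11, Bowtie2 2.4.2 and Trim Galore 0.6.6. A shift of ATAC reads to the transposase cut is not stated there. Tag signals are scaled to 10000000 tags a library, per the file headers, and the score is in tags of the library itself. The deposited files also give a fold over the surrounding region and a clonal fold, a p-value against that region, a focus ratio (a fraction) in ATAC lists and a region size in bp (other unit) in H3K9me2 lists. The deposited H3K9me2 lists hold 24.4 to 43.9% of the peaks their headers state, and covered length measures local enrichment, not the amount of the mark.

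Peaks on the 19 autosomes were assigned by the overlap and distance rules given in the report to 20665 coding genes of a RefSeq gene table (GRCm38.p6). Strand came from the RefSeq promoter table. H3K9me2 peaks were merged per library, and the covered percent of 10 kb windows was compared, cKO minus WT, with limma 3.58.1 under R 4.3.3. Variances were moderated with a trend, and Benjamini-Hochberg ran over all tested windows of tumour peaks. A first trial on simulated data, with noise from the SD of each window, recovered none of the added shifts. In a second, noise was drawn from limma's own variance prior, so it does not measure the power in these data. Other steps used Python 3.11.15. Groups and replicate numbers came from the sample titles, and Wilson intervals are at 95%. Named peaks were the 10 with the highest tag signal, at most 6 per gene list by tag signal, the 5 smallest limma p in each direction among windows without overlap, 6 genes marked at both ends and the 3 peaks on either side of the distance limit. Others are named as members of a short count or as examples. The peaks, gene lists and rules were chosen with earlier results of these data known.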

Additional observations from a re-analysis of the deposited data

How the results depend on the processing

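The count of 3299 tumour-only gene-end peaks stayed within 1.5 times under 6 of 7 other settings of overlap, distance and strength. With the tumour list cut to the length of the spleen list, strongest first, it was 1163. In 3 settings chosen after seeing the data it was 304 for tag signals of 50 or more and stayed within 1.5 times with the restriction to the minimum distance or to the spleen threshold. The share of tumour-only peaks at a gene end, 20.5%, was 19.2% with spleen peaks within 500 bp counted as shared, 21.3% with every peak set to 400 bp, 16.4% for 500 bp and 26.2% for 2 kb from an end, 36.7% for the stronger 50% of each list, 27% for the cut list, 18.9% beyond the minimum distance, 24.6% above the spleen threshold and 24.3% for tag signals of 50 or more. The share of gene-end peaks that were tumour-only, 35.5%, was in the same order 32.0, 37.6, 32.0, 39.7, 42.3, 17.9, 30.4, 29.8 and 7.6%, and 36.9% with 50% of the tumour peak to be covered. Of the 10 strongest peaks, 5 stayed with spleen peaks within 500 bp counted as shared and 2 beyond the minimum distance.

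The H3K9me2 difference of 1.54 points at these peaks was 1.14 to 1.95 with any 1 library left out, 0.257 times the autosomal coverage after division by it, 0.352 with lists of equal length and 0.271 with the stronger 50% of each list. The difference in the share touching an H3K9me2 peak, 0.697 points, ran from -0.369 to 1.56 with 1 library left out, falling below 0 without cKO replicate 2 (-0.0556) or WT replicate 1 (-0.369), and was -0.0217 after division by coverage and -0.849 with lists of equal length. The causes were not tested. The 0 windows called by limma stayed 0 under all 15 alternatives, with or without the replicate block. The block left the differences at 1.54 and 0.697. Deviations from the genotype mean at each window correlated at 0.00997, -0.0066 and 0.00444 between same-numbered libraries of the genotypes. Between libraries with other numbers they correlated at -0.01832 to 0.01182. As coverage of single windows is sparse, such deviations cannot decide whether the numbers pair the libraries. Of 141 values for the 10 named windows, 1 changed sign, Slc22a8 with 25 kb on each side (0.907); lists of equal length brought the 5 windows higher in cKO to 2.38 to 9.55 points and the 5 lower ones to -17.8 to -5.49. Of 8 gene lists recounted with the cut tumour list, 6 moved by over 1.5 times, 5 as given in the report and PI3K-AKT-mTOR to 2 of 24. The count over all coding genes fell by over 1.5 times as well. Calls rest on 1 ATAC library per tissue, and weak peaks near the tag thresholds are limited by depth.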
